A study of Mus musculus with 2 samples.

Results

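The Slc25 genes encode the mitochondrial carriers, the proteins that carry metabolites across the inner mitochondrial membrane. They were taken as every symbol in both liver tables that starts with Slc25a and a digit, with Slc25a1, Slc25a20 and the pseudogene rows left out, which gave 45 genes of the 53342 rows. The rule used no measured value, though the members were chosen with earlier results of these data known. Of these 45 carriers, 39 passed a minimum of 1 CPM (normalized reads per 1000000) in 1 or both libraries and 6 did not.

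The study sequenced liver mRNA of mice with an induced deletion of the insulin receptor gene Insr in adipocytes and of control mice. The 2 libraries were from male mice given 100 mg/kg tamoxifen on 5 days from an age of 7 weeks and analysed 3 days after the last dose. The iFIRKO library was from Adipoq-CreERT2 mice with a floxed Insr gene, and the control library was labelled wild type, while the methods of the study describe control mice as carrying the floxed Insr gene without Cre and as given tamoxifen too. CreERT2 was driven by the adiponectin promoter, so the deletion was aimed at adipocytes and not at liver cells, and Insr was read in the liver at 4246 normalized reads in control against 3692 in iFIRKO. Whether a library was from 1 mouse or a pool is not given in the sources used here. With 1 library per genotype there was no replicate and no test, and a difference between the libraries was a difference between 2 libraries and not one shown between genotypes. All intervals below are 95% intervals of counting error only.

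Mitochondrial carriers share a fold of transmembrane helices and a short signature motif, and most exchange a substrate in the matrix for another in the intermembrane space. Through them ADP, phosphate and glutamate reach the matrix, and ATP, citrate and aspartate leave it. In the liver they join the matrix and cytosolic steps of gluconeogenesis, fatty acid synthesis, the urea cycle and the malate-aspartate shuttle.

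Values are normalized reads, the scaled read counts of the deposited tables brought back from the log2 scale. Fold changes are log2 ratios of iFIRKO over control with a pseudocount of 0.1 CPM, and a gene was counted as higher or lower where its fold passed 1.5, the limit of the study. Levels were ranked between genes after division by the length of the annotated exons, as normalized reads per kilobase. Shares of read pairs within groups of related carriers were not divided by length. Such shares compare the 2 libraries and are not relative mRNA levels of the genes. The libraries held about 42276968 reads in control and 41305480 in iFIRKO, estimated from the steps between low values. Brackets after a pair of values hold the log2 fold change and, where given, its interval.

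The carriers that differed most between the 2 libraries were Slc25a25, the short calcium-binding ATP-Mg/phosphate carrier, and Slc25a10, the dicarboxylate carrier. They were 1.89-fold and 1.88-fold higher in iFIRKO. The carriers that were lower were Slc25a33 and Slc25a36, which carry pyrimidine nucleotides, and Slc25a27, also called UCP4. Thus 2 of 39 carriers (5.13%) were more than 1.5-fold higher, against 4.46% of the 13400 genes past the minimum, and 3 (7.69%) were more than 1.5-fold lower, against 7.28% of all genes. Both shares were near those of all genes. In bulk liver, fewer cells of a type and less RNA per cell cannot be told apart. The carriers nearest to the limit without passing it were Slc25a4 at -0.49 and Slc25a22 at 0.47 on the log2 scale.

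The promoters of the called carriers are shown because these are the genes that passed the fold limit, from 250 bases before to 50 bases after the transcription start as RefSeq gives them on GRCm38.p6, each read 5′ to 3′ on the strand of the gene. Capitals mark matches on either strand to any of 9 motifs. These were the E-box CACGTG, the cAMP response element (CRE) TGACGTCA and its core TGACG, the GC box GGGCGG, the CCAAT box, the TATA box TATAAA, the NRF1 core GCGCATGC, the forkhead element GTAAACA and the STAT element TTCNNNGAA. No RefSeq window was matched for Slc25a27. The table held 3 starts for Slc25a25.
Slc25a10, chr11:120491587-120491886: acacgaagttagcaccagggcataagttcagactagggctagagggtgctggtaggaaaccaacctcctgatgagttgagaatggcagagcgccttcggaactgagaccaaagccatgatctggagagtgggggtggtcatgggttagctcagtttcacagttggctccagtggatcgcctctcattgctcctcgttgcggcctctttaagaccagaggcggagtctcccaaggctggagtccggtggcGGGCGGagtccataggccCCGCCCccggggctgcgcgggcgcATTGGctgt
Slc25a25, chr2:32424017-32424316: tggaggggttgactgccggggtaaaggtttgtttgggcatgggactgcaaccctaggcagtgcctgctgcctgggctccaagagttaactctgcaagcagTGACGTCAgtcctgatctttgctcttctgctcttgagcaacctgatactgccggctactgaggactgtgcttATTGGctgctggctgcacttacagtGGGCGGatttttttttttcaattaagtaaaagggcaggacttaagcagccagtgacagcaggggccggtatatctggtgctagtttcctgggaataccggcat
Slc25a25, chr2:32431102-32431401: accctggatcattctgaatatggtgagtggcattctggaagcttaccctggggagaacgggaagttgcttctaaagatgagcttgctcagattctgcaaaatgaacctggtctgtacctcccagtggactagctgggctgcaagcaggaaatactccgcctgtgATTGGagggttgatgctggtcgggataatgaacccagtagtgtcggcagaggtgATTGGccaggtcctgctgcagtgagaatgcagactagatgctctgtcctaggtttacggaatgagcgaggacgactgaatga
Slc25a25, chr2:32451421-32451720: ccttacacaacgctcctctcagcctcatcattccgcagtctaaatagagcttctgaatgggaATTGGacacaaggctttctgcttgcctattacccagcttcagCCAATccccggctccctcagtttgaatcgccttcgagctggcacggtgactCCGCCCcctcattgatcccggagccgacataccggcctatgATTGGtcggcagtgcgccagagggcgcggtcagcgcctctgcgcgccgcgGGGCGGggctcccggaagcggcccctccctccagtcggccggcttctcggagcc
Slc25a33, chr4:149774218-149774517: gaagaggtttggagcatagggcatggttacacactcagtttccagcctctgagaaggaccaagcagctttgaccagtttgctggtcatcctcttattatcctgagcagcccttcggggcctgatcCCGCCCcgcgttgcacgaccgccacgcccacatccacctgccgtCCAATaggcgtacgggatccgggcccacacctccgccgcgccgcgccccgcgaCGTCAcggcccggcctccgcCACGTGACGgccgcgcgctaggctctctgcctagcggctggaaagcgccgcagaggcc
Slc25a36, chr9:97110992-97111291: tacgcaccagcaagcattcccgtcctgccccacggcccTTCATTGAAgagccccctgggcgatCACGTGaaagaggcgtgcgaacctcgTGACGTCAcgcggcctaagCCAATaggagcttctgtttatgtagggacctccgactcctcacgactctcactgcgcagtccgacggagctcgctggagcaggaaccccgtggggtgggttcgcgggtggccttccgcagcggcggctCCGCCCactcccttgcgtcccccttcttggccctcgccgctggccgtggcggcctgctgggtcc

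Positions are those of the first base of a match, counted from the start site, where the first transcribed base is 1. The first transcribed bases were found in a GENCODE M21 transcript for Slc25a33, Slc25a36 and the Slc25a25 window at chr2:32431102. They were not found for Slc25a10 or the other Slc25a25 windows, including that with the full CRE. Positions in those windows rest on the RefSeq start alone. The full CRE stood at -150 in 1 of the 3 Slc25a25 windows and at -161 in that of Slc25a36, and each full CRE also held the core on both strands. The E-box stood at -8 in the Slc25a33 window, where it overlapped a CRE core at -4, and at -187 in that of Slc25a36. The Slc25a10 window held a pair of GC boxes at -1 and 18 and a CCAAT box at 42, and none of the E-box or CRE letters. A full CRE was thus found in a window of a higher carrier and in one of a lower carrier.

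Over the family, 34 of 45 carriers were matched to 44 windows. GC boxes were in 36 of them (81.8%), against 35.7% of all 32851 windows in the RefSeq table, and CCAAT boxes in 47.7% against 37.4%. The E-box was in 7 windows (15.9%), of Slc25a13, Slc25a14, Slc25a15, Slc25a31, Slc25a33 and Slc25a36, against 7.15% of all windows. The full CRE was in 2 carrier windows (4.55%) against 1.79%, and its core in 27.3% against 20.8%. TATAAA was in 4.55% of the carrier windows against 13.6%, the NRF1 core in 4.55% against 2.71% and the STAT element in 4.55% against 8.30%, while the forkhead element was in none of the 44 and in 3.65% of all windows. The carrier windows had a median GC content of 59.3% and 15 CpG, against 52.7% and 7 over all windows. Windows of the same gene can overlap, and a match of letters is not a bound site.

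Per kilobase, liver carrier mRNA was led by few genes. Slc25a5, the ADP/ATP carrier of most tissues other than heart and muscle, was at 10723 normalized reads per kilobase in control and 11485 in iFIRKO. Slc25a47, a carrier found mainly in liver, followed at 9633 normalized reads per kilobase in control and 10056 in iFIRKO, and Slc25a39, which carries glutathione, at 5449.8 normalized reads per kilobase in control and 6269.8 in iFIRKO. Per kilobase of the longest transcript, Slc25a47 stood above Slc25a5 in both libraries, with 15214 against 14234 normalized reads per kilobase in control and 15883 against 15245 in iFIRKO. With joined exons these 3 genes made up 55.3% of the summed per-kilobase level of the family in control and 52.6% in iFIRKO.

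Next in order came Slc25a15, the ornithine carrier of the urea cycle, at 3328 normalized reads per kilobase in control and 3929 in iFIRKO, and Slc25a23, an ATP-Mg/phosphate carrier, at 2159 normalized reads per kilobase in control and 2346 in iFIRKO. Slc25a13, the aspartate/glutamate carrier known as citrin, was at 1840.5 normalized reads per kilobase in control and 2119.8 in iFIRKO, and Slc25a3, the phosphate carrier, at 1839 normalized reads per kilobase in control and 1994 in iFIRKO. The counting intervals of these last 2 overlapped in control. Slc25a10 was in the eighth place at 1407 normalized reads per kilobase in control and in the fifth at 2649 in iFIRKO. Slc25a22, a glutamate carrier, was at 1361 normalized reads per kilobase in control and 1886 in iFIRKO, with an interval that overlapped that of Slc25a10 in control, and Slc25a11, the oxoglutarate carrier, was at 1171 normalized reads per kilobase in control and 1291 in iFIRKO. The same 10 genes led in both libraries and held 83.4% and 83.2% of the family's per-kilobase level. This order is that of joined exons. With the longest transcript as length, Slc25a17 was among the first 10 in control in place of Slc25a11, and Slc25a25 in iFIRKO, so the libraries then did not share the same 10.

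**Figure D1:**
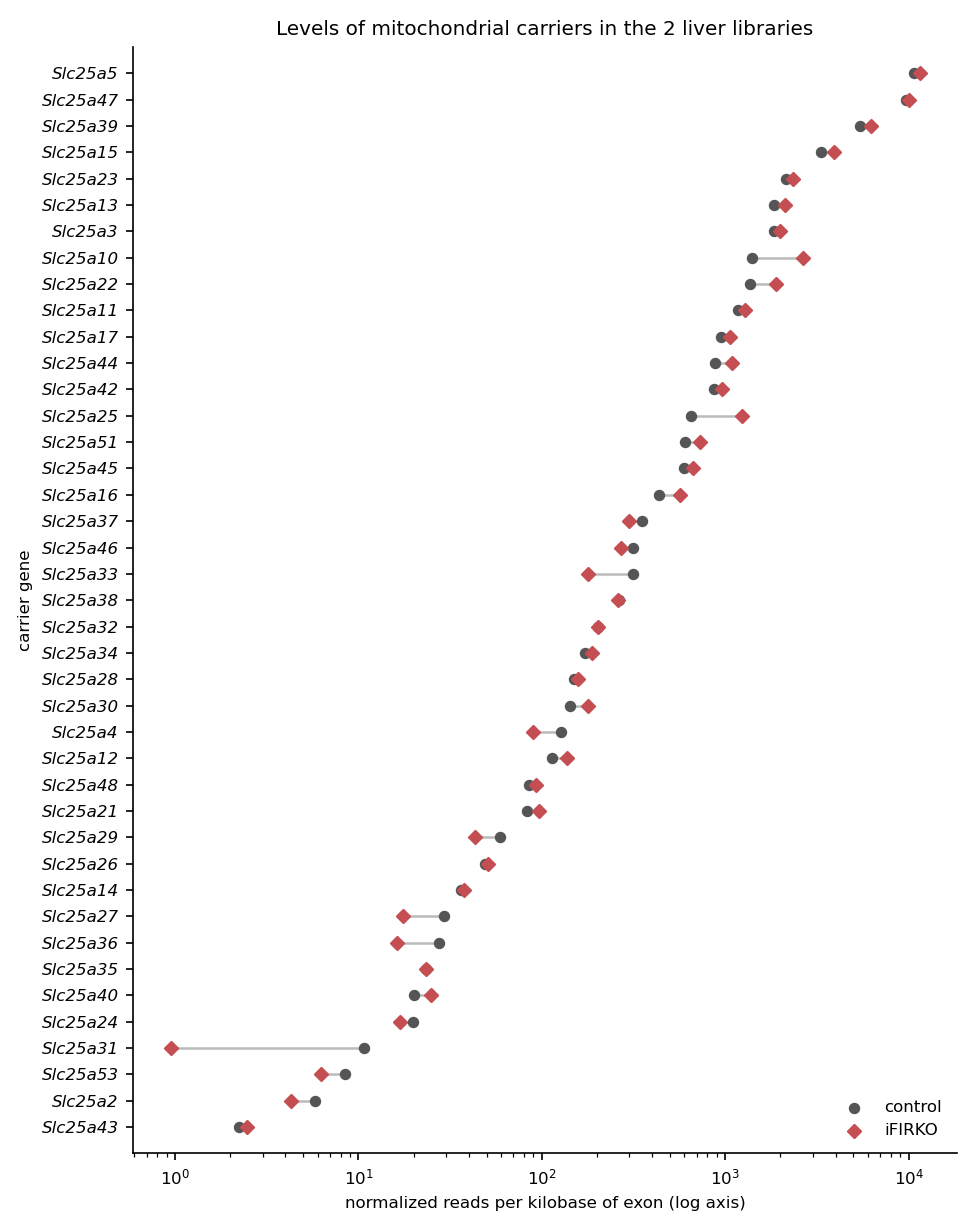
Levels of carriers read in either library, as normalized reads per kilobase of joined exons on a log axis, ordered by the control level, with a circle for control and a diamond for iFIRKO. Slc25a5 leads at 10723 normalized reads per kilobase in control and 11485 in iFIRKO, and Slc25a10 and Slc25a25 show the widest gaps among the abundant carriers. The 3 carriers listed at 0 in both are left out, and Slc25a31 at the lower end rests on 11 and 1 read pairs.

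Among the adenine nucleotide, phosphate and CoA carriers, 9 of 11 passed the minimum, 1 was higher, none was lower and the median log2 fold change was 0.12. Slc25a25 (ENSMUSG00000026819.15, chr2:32414487-32451445, reverse strand, 12 annotated transcripts) had 5104 normalized reads in control against 9657 in iFIRKO. Its fold was 1.89 and its log2 fold change 0.92 (interval 0.85 to 0.99), so the difference was larger than counting error allows. It was at 649 normalized reads per kilobase in control and 1228 in iFIRKO with the exons of all transcripts joined. That length, 7862 bases, is over that of its longest transcript, 3821 bases, so its place in the order depends on the length used. Of its exons, 379 bases overlap those of Naif1 on the other strand, which had 199 normalized reads in control against 163.

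The other ATP-Mg/phosphate carriers differed less. Slc25a23 had 11432 normalized reads in control against 12421 in iFIRKO, a log2 fold change of 0.12 (0.07 to 0.17), Slc25a24 had 67.7 normalized reads in control against 57.9 in iFIRKO (-0.21, -0.98 to 0.55), and Slc25a41 was listed at 0 in both libraries. As a share of the read pairs of these 4 genes, Slc25a25 was 30.7% (95% interval 29.8 to 31.7) in control and 43.6% (42.7 to 44.6) in iFIRKO, and the intervals did not overlap. Slc25a23 was the larger member in both libraries, with 68.8% and 56.1% of the pairs and 76.3% and 65.3% per kilobase.

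The ADP/ATP carriers exchange cytosolic ADP for matrix ATP. Slc25a5 had 17650.3 normalized reads in control against 18904 in iFIRKO, with a log2 fold change of 0.10 (0.06 to 0.14). Of its 50-base stretches, 33.8% are also found in 9 other genes, which summed to 59.7 normalized reads in control and 52.7 in iFIRKO, and how shared reads were assigned is not given in the sources used here. Slc25a4, the ADP/ATP carrier of heart and muscle, had 298 normalized reads in control against 211 in iFIRKO (-0.49, -0.87 to -0.13), and was 1.66% of the ADP/ATP carrier pairs in control and 1.11% in iFIRKO. Slc25a31, the carrier of the testis, had 11 read pairs in control and 1 in iFIRKO, too few for a fold change.

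Phosphate and coenzyme A carriers were all within the limit. Slc25a3 had 10206 normalized reads in control against 11067 in iFIRKO (0.12, 0.06 to 0.17). Of the carriers linked to coenzyme A import, Slc25a42 had 5240.2 normalized reads in control against 5796 in iFIRKO (0.15, 0.07 to 0.22) and Slc25a16 had 2087 normalized reads in control against 2727 in iFIRKO (0.39, 0.27 to 0.50). Slc25a17, the peroxisomal carrier, had 2707 normalized reads in control against 3014 in iFIRKO (0.15, 0.05 to 0.26). These 4 genes had intervals above 0, and Slc25a16 made up 28.5% of the pairs of Slc25a16 and Slc25a42 in control and 32.0% in iFIRKO, with intervals that did not overlap.

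All 3 dicarboxylate and oxoacid carriers passed the minimum, 1 was higher and none was lower (median 0.22). Slc25a10 (ENSMUSG00000025792.9, chr11:120491840-120499187, forward strand, 6 annotated transcripts), which exchanges malate and succinate for phosphate, had 4861 normalized reads in control against 9151 in iFIRKO. This was 1.88-fold, a log2 fold change of 0.91 (0.84 to 0.98). The antisense gene Gm11788 overlaps 228 bases of its exons and had 7.16 and 30.2 normalized reads. Slc25a11, the oxoglutarate/malate carrier of the malate-aspartate shuttle, had 2482 normalized reads in control against 2736 in iFIRKO (0.14, 0.03 to 0.25), and Slc25a21, which carries oxodicarboxylates, had 406 normalized reads in control against 473 in iFIRKO (0.22, -0.06 to 0.49). Of the pairs of Slc25a10 and Slc25a11, Slc25a10 was 66.2% (95% interval 64.6 to 67.7) in control and 77.0% (75.9 to 78.1) in iFIRKO.

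The enzymes that work on the substrates of these carriers were listed beside them. Of 12 malate-aspartate shuttle and citrate-malate enzymes, 2 (16.7%) were higher, against 4.46% of all genes past the minimum. None was lower, against 7.28% of all genes, and the median was 0.22. Me1, cytosolic malic enzyme, had 6884 normalized reads in control against 17594 in iFIRKO (1.35, 1.30 to 1.41), and Pcx, pyruvate carboxylase, had 19252 normalized reads in control against 31344 in iFIRKO (0.70, 0.67 to 0.74). Acly, ATP citrate lyase, was below the limit at 19041 normalized reads in control against 27815 in iFIRKO (0.55). Pck1, cytosolic phosphoenolpyruvate carboxykinase and the gene with the most reads of the list, had 137023 normalized reads in control against 99529 in iFIRKO (-0.46). The malate dehydrogenases Mdh1 (-0.05) and Mdh2 (0.20) and the aspartate aminotransferases Got1 (0.06) and Got2 (0.27) were nearer to 0. Slc25a10, Me1 and Pcx were thus above the limit, while Pck1 was lower in iFIRKO without passing it. The transferases and dehydrogenases of the shuttle and the shuttle's own carriers Slc25a11, Slc25a12 and Slc25a13 were within the limit.

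**Figure D2:**
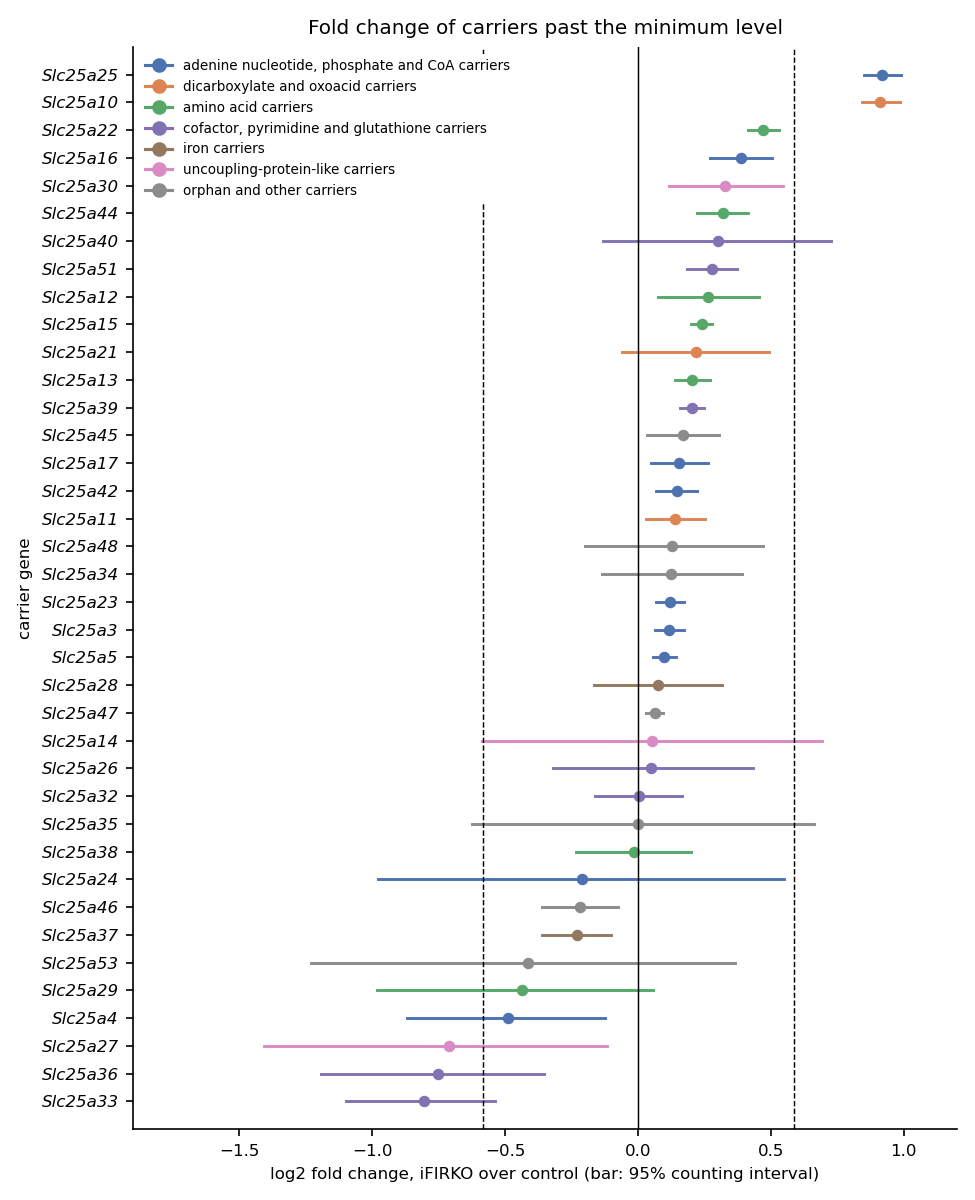
Log2 fold change, iFIRKO over control, of 38 of the 39 carriers past the minimum, ordered by value and coloured by transport group. Bars are 95% counting intervals of 1 library against 1, and dashed lines mark a fold of 1.5. Slc25a25 (0.92) and Slc25a10 (0.91) lie beyond the right line and Slc25a27, Slc25a36 and Slc25a33 beyond the left.

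Among the amino acid carriers, 7 of 9 passed the minimum and none was past the limit in either direction, with a median log2 fold change of 0.24. Slc25a15 had 18731 normalized reads in control against 22118 in iFIRKO (0.24, 0.20 to 0.28), while its relative Slc25a2 was at 4 read pairs in control and 3 in iFIRKO. Slc25a22 had 8158 normalized reads in control against 11302 in iFIRKO (0.47, 0.41 to 0.53), and the other glutamate carrier, Slc25a18, was listed at 0 in both. Slc25a22 was the nearest to the higher limit of all carriers that stayed under it.

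The aspartate/glutamate carriers bring reducing equivalents of NADH into the matrix. Slc25a13 had 6990.0 normalized reads in control against 8051 in iFIRKO (0.20, 0.14 to 0.27), and Slc25a12, the form of brain and muscle, had 834 normalized reads in control against 1002 in iFIRKO (0.26, 0.07 to 0.46). Slc25a12 was 10.7% (95% interval 9.72 to 11.7) in control and 11.1% (10.2 to 12.0) in iFIRKO of their pairs, with overlapping intervals.

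Slc25a44, which carries branched-chain amino acids, had 3131 normalized reads in control against 3904 in iFIRKO (0.32, 0.22 to 0.41). Slc25a29, a carrier of basic amino acids, had 154 normalized reads in control against 113 in iFIRKO (-0.44, -0.98 to 0.05), and Slc25a38, a glycine carrier used in heme synthesis, had 725 normalized reads in control against 717 in iFIRKO (-0.02, -0.23 to 0.20). The intervals of the last 2 included 0. Slc25a29 lies 162 bases from Slc25a47 on chromosome 12 in the opposite orientation, counted between the annotated gene ends. Their RefSeq promoter windows lie further apart, at chr12:108835827-108836126 for Slc25a29 and chr12:108850879-108851178 for Slc25a47. The 2 genes held places 31 and 2 in the order of control levels per kilobase, with log2 fold changes of -0.44 and 0.06.

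The urea cycle enzymes, which work with Slc25a15 and Slc25a13, were listed with Nags, Oat, Gls2 and Glud1, which are linked to the cycle but not steps of it. All were within the limit, with 9 tested and a median of -0.14. Cps1, carbamoyl phosphate synthetase of the matrix, had 187018 normalized reads in control against 143505 in iFIRKO (-0.38), Otc, which uses the ornithine that Slc25a15 imports, 14469.6 normalized reads in control against 12532 in iFIRKO (-0.21), and Ass1, which uses aspartate, 166614 normalized reads in control against 147965 in iFIRKO (-0.17). Arg1, the cytosolic arginase, had 58621 normalized reads in control against 63183 in iFIRKO (0.11). Intervals were above 0 for 3 of the 9 enzymes and below 0 for 5, against 2674 and 2679 of the 13400 genes. Among the enzymes of the cycle itself, they were below 0 for Cps1, Otc and Ass1 and above 0 for Asl and Arg1. Of the linked enzymes, Nags and Oat were below 0, Glud1 was above it and the interval of Gls2 included it. The intervals of Slc25a15 and Slc25a13 were above 0.

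All 8 carriers of cofactors, pyrimidine nucleotides and glutathione passed the minimum, none was higher and 2 were lower, with a median of 0.13. Slc25a33 (ENSMUSG00000028982.9, chr4:149744036-149774277, reverse strand, 1 annotated transcript) had 593 normalized reads in control against 337 in iFIRKO, with a log2 fold change of -0.81 (-1.10 to -0.54). The antisense gene Gm13068, which overlaps 281 of its exonic bases, was listed at 0 in both libraries. Slc25a36 (ENSMUSG00000032449.13, chr9:97074961-97111157, reverse strand) had 264 normalized reads in control against 155 in iFIRKO (-0.75, -1.19 to -0.35). It shares 6.70% of its 50-base stretches with Gm13217, which had 6.13 and 5.31 normalized reads. Both pyrimidine nucleotide carriers were thus lower in iFIRKO by a like amount, and the intervals of the Slc25a36 share of their pairs overlapped, at 30.9% (95% interval 26.5 to 35.5) in control and 31.6% (25.8 to 37.8) in iFIRKO. Per kilobase of joined exons, the Slc25a36 share was 8.06% in control and 8.30% in iFIRKO.

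Glutathione enters the matrix through Slc25a39 and Slc25a40. Slc25a39 had 15019.5 normalized reads in control against 17279.6 in iFIRKO (0.20, 0.16 to 0.25), and Slc25a40 had 168 normalized reads in control against 208 in iFIRKO (0.30, -0.13 to 0.73), 1.11% and 1.19% of the pairs of both genes. Per kilobase, Slc25a39 made up 99.6% of this pair in either library.

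The cofactor carriers described here were at or above the control level. Slc25a51, the NAD carrier, had 3317 normalized reads in control against 4023 in iFIRKO (0.28, 0.18 to 0.37). Slc25a32, linked to folate and flavin transport, had 1235 normalized reads in control against 1238 in iFIRKO (0.00, -0.16 to 0.17), and Slc25a26, the S-adenosylmethionine carrier, had 237 normalized reads in control against 245 in iFIRKO (0.05, -0.32 to 0.43). The interval of Slc25a51 was above 0 and those of Slc25a32 and Slc25a26 included it.

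The iron carriers, or mitoferrins, supply iron for heme and iron-sulfur clusters. Slc25a37, the mitoferrin of erythroid cells, had 2116 normalized reads in control against 1803 in iFIRKO (-0.23, -0.36 to -0.10), and Slc25a28, the form of other tissues, had 562 normalized reads in control against 591 in iFIRKO (0.07, -0.17 to 0.31). Slc25a37 shares 6.99% of its 50-base stretches with Gm16867, which had 187 normalized reads in control against 189, so its value is uncertain. Neither was past the limit. Slc25a28 made up 21.0% (95% interval 18.8 to 23.3) in control and 24.7% (22.3 to 27.3) in iFIRKO of the mitoferrin pairs. Erythroid markers were measured beside them because erythroid cells are rich in Slc25a37 and Slc25a38. Of 12 markers 8 passed the minimum, 6 were higher and 2 lower, and they summed to 13651 in control and 27114 in iFIRKO normalized reads, led by the globin Hbb-bs at 4415 normalized reads in control against 8679 in iFIRKO (0.97). Alas2, the erythroid heme synthesis enzyme, was at 639.7 normalized reads in control against 1921 in iFIRKO (1.58), and Klf1, an erythroid transcription factor, at 105 normalized reads in control against 50.3 in iFIRKO (-1.01). Slc25a37 (-0.23), Slc25a28 (0.07) and Slc25a38 (-0.02) were all within the limit, and the part of erythroid cells in these values was not tested.

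The uncoupling-protein-like carriers all passed the minimum, with 1 lower, none higher and a median of 0.05. Slc25a27 (ENSMUSG00000023912.10, chr17:43641891-43667214, reverse strand), best known from brain, had 115 normalized reads in control against 68.7 in iFIRKO (-0.71, -1.41 to -0.12), which rested on 58 and 34 read pairs. It was past the limit with a pseudocount of 0.1 CPM but not with 1 CPM. Slc25a30 had 653 normalized reads in control against 819.7 in iFIRKO (0.33, 0.12 to 0.54), and Slc25a14 had 85.4 normalized reads in control against 88.8 in iFIRKO (0.05, -0.59 to 0.69). Of these 3, only Slc25a30 had an interval above 0.

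Of the 9 orphan and other carriers in the tables, 7 passed the minimum and none was past the limit, with a median of 0.06. Slc25a47 had 28755 normalized reads in control against 30018 in iFIRKO (0.06, 0.03 to 0.10), the largest read number of the family. Slc25a46, which acts on the outer membrane in mitochondrial fusion and fission, had 1713 normalized reads in control against 1472 in iFIRKO (-0.22, -0.36 to -0.08), and Slc25a45 had 1648 normalized reads in control against 1851 in iFIRKO (0.17, 0.03 to 0.31). The intervals of Slc25a46 and Slc25a45 lay on opposite sides of 0.

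Slc25a34 had 459.5 normalized reads in control against 502 in iFIRKO (0.13), Slc25a48 had 288 normalized reads in control against 315 in iFIRKO (0.13), and Slc25a53 had 67.5 normalized reads in control against 49.7 in iFIRKO (-0.41, -1.23 to 0.36). Slc25a35 had 85.7 normalized reads in control against 85.8 in iFIRKO, but 31.3% of its exonic bases overlap Rangrf on the other strand, which had 89.1 and 86.9, so its reads are uncertain. The intervals of all 4 included 0. Slc25a43 was at 2 read pairs in each library, and Slc25a54 was listed at 0 in both.

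**Figure D3:**
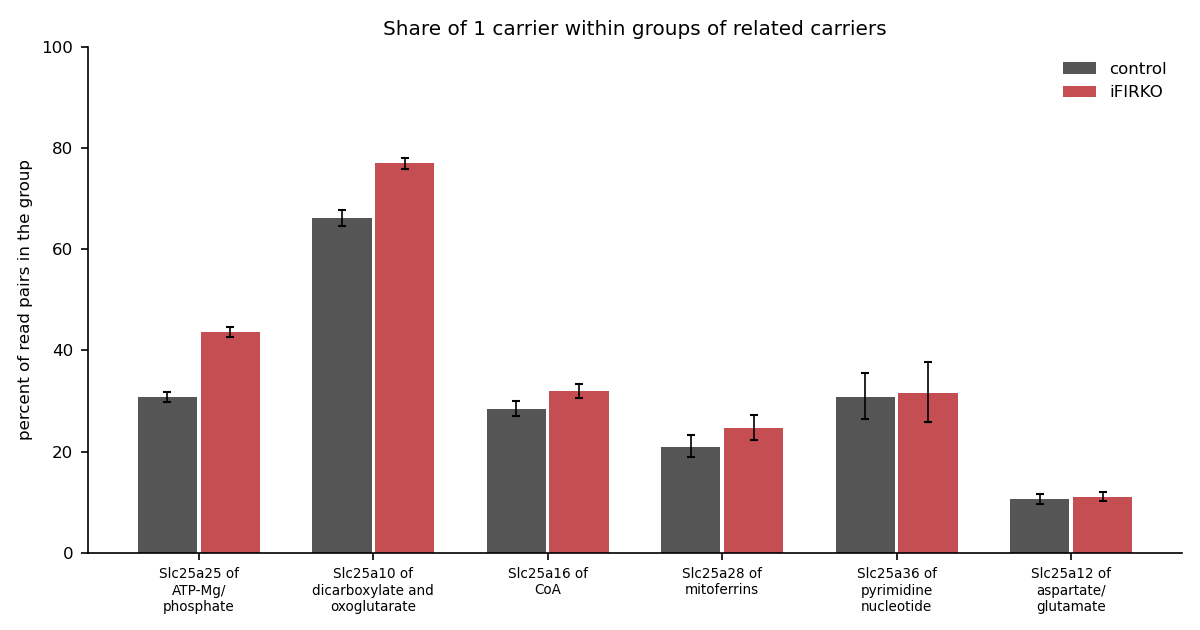
Share of 1 carrier in the read pairs of its group of related carriers (percent, bars from 0, error bars 95% exact binomial intervals), in control and iFIRKO. Shares are not divided by gene length. Slc25a25 goes from 30.7% to 43.6% and Slc25a10 from 66.2% to 77.0%, while the intervals of Slc25a28, Slc25a36 and Slc25a12 overlap between libraries.

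Across the family, small positive differences were more common than negative ones. Of the 39 carriers, 29 (74.4%) had a log2 fold change above 0, against 6875 of 13400 genes (51.3%), and the median was 0.13 against 0.0075 over all genes. Under the other scalings of the libraries 27 of 39 were above 0. Intervals lay above 0 for 20 carriers and below 0 for 6, against 2674 and 2679 of the 13400 genes. The summed normalized reads of the 45 genes were 159183 in control and 185265 in iFIRKO, or 0.379% and 0.446% of all, a log2 ratio of 0.22 (0.21 to 0.23). The largest contributions to the difference of 26082 normalized reads were those of Slc25a25 (17.5%), Slc25a10 (16.4%), Slc25a15 (13.0%), Slc25a22 (12.1%) and Slc25a39 (8.67%), 67.6% in all. Without Slc25a25 and Slc25a10, left out after their values were seen, the log2 ratio of the sums was 0.16.

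The direction was read by level, since over all genes too positive differences were more common at higher levels. Of the 20 carriers with a mean over 1000 normalized reads, 18 were above 0, with a median of 0.16, against 2792 of 5072 genes and a median of 0.02. The exceptions were Slc25a37 and Slc25a46. Of the 12 with a mean of 200 to 1000, 8 were above 0 (median 0.10), against 2598 of 4942 genes (median 0.02). Of the 7 tested carriers under 200, 3 (42.9%) were above 0 (median -0.21), against 1485 of 3386 genes (43.9%, median -0.06), so the share at this level was that of all genes. The 3 carriers past the lower limit were thus all among those under 1000 normalized reads, and both past the higher limit among those over it. Over all genes, 17.2% of those under 200 normalized reads were past the lower limit, 5.14% of those at 200 to 1000 and 2.78% of those above. The shares of all genes past the higher limit were 10.04%, 2.91% and 2.23% at the same levels. Of the carriers over 1000, 2 of 20 were past the higher limit. Past the lower limit were 1 of the 7 carriers under 200 and 2 of the 12 at 200 to 1000. Genes of a family can be controlled together and are not replicates, and no test of this pattern was made.

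**Figure D4:**
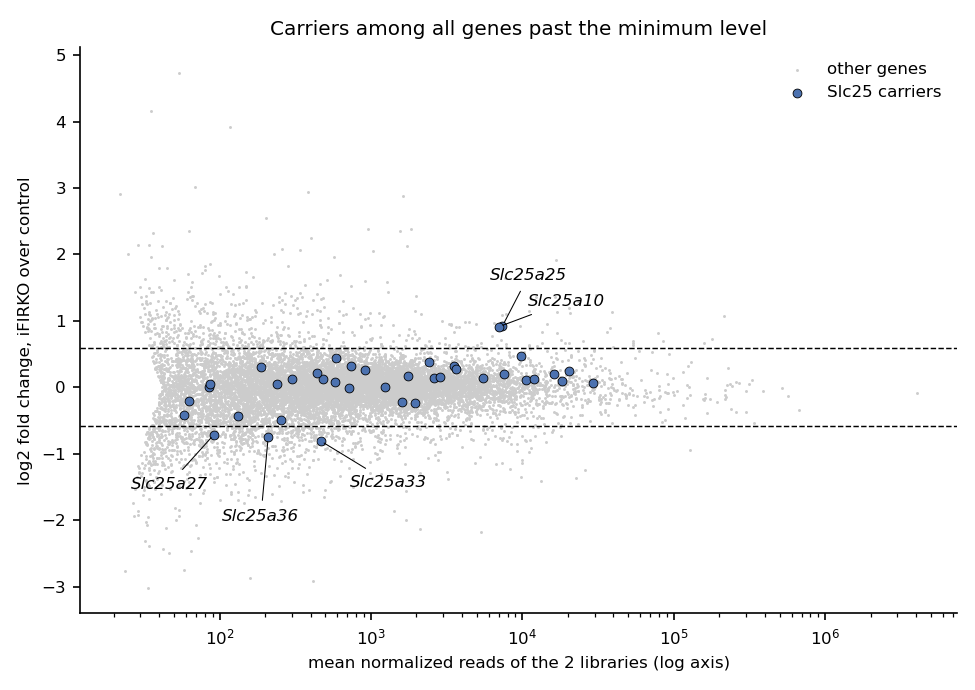
Log2 fold change, iFIRKO over control, against the mean normalized reads of the 2 libraries (log axis) for the genes past the minimum, with the 39 Slc25 carriers as large points and dashed lines at a fold of 1.5. Most carriers over 1000 normalized reads lie just above 0, and the 3 carriers under the lower line have low means.

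Lists of other mitochondrial genes were read in the same way. Of 77 tested nuclear-encoded subunits of oxidative phosphorylation, none was past the limit, 68 (88.3%) were above 0 and the median was 0.08. Of the 13 genes of the import machinery, the TOM and TIM proteins that bring carriers to the inner membrane, none was past the limit, 12 were above 0 and the median was 0.13. Timm9, a chaperone of the intermembrane space, had 857 normalized reads in control against 1218 in iFIRKO (0.50, 0.33 to 0.69), its relative Timm10b had 287 normalized reads in control against 386 in iFIRKO (0.42), and Tomm70a, the receptor for carrier precursors, had 4187 normalized reads in control against 4591 in iFIRKO (0.13).

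Of 14 tested genes of other membrane transport, none was past the limit (median 0.04). Vdac1, the outer membrane channel, had 7397 normalized reads in control against 7473 in iFIRKO (0.01), Mpc2, a subunit of the pyruvate carrier, had 6366 normalized reads in control against 6930.2 in iFIRKO (0.12), and Sfxn3, a sideroflexin, had 116 normalized reads in control against 76.2 in iFIRKO (-0.58). Of 169 tested solute carriers outside the Slc25 family, 9 were higher and 11 lower, 82 (48.5%) were above 0 and the median was -0.00495. The share above 0 was therefore larger in the Slc25 carriers, the import genes and the oxidative phosphorylation subunits than in the other solute carriers, as a description of these libraries. It was 75% in the malate-aspartate shuttle and citrate-malate enzymes, 64.3% in other membrane transport, 63.6% in regulators of mitochondrial biogenesis and 44.4% in the urea cycle and linked enzymes. These lists were not matched for level.

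**Figure D5:**
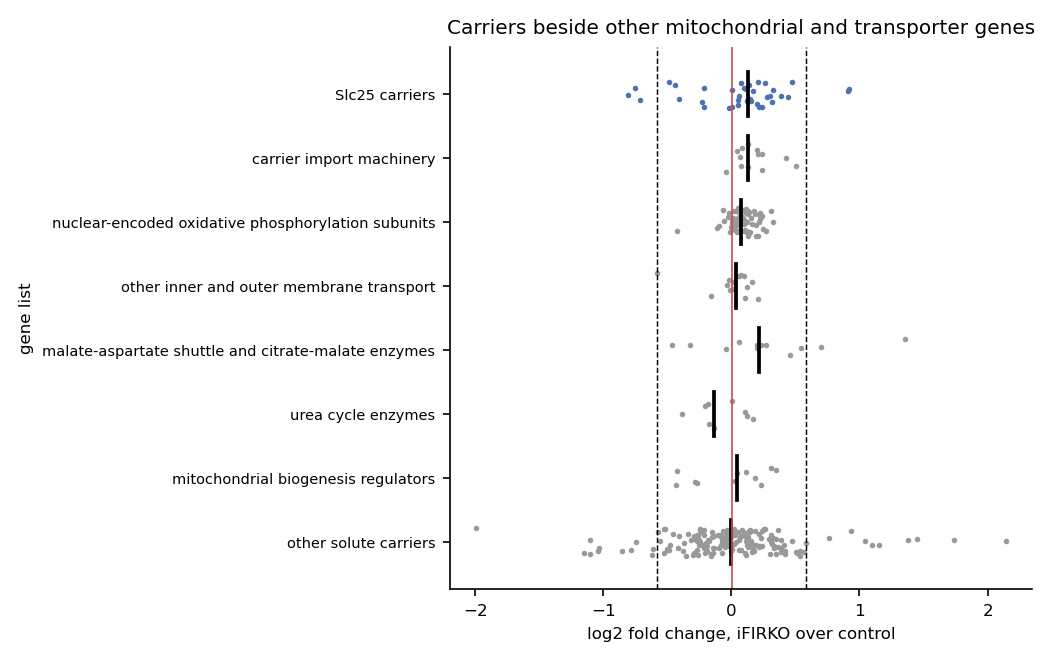
Log2 fold change, iFIRKO over control, of the genes past the minimum in the Slc25 family and 7 other lists, 1 point per gene, with the median of each list as a black bar, the median of all genes as a red line and dashed lines at a fold of 1.5. The medians are 0.13 for the carriers, 0.13 for the import machinery and 0.08 for the oxidative phosphorylation subunits, and vertical scatter within a list carries no value.

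The labelled tissue was checked against its markers. All 10 hepatocyte markers were measured, with a sum of 130520.0 CPM in control and 124233 CPM in iFIRKO, a median log2 fold change of -0.06 and only Apoa1, an apolipoprotein, past the limit, at 168382 normalized reads in control against 87599.7 in iFIRKO (-0.94). Markers of other cells of the liver differed. In normalized reads, 5 of 8 Kupffer cell and macrophage markers were lower (sum 30092 in control and 19564 in iFIRKO), as were all 4 tested of 9 lymphocyte and neutrophil markers (sum 676 in control and 234 in iFIRKO) and 2 of 6 endothelial markers (sum 9174 in control and 6668 in iFIRKO). Of these 4, S100a8 and Cd79a passed the minimum in control only, so the minimum itself favoured lower values. Lymphocyte and neutrophil markers under the minimum ranged from -0.75 (Cd3e) to 0.01 (Cd8a), and Ly6g had 1 read pair in control and 2 in iFIRKO. None of the 6 stellate cell and 5 cholangiocyte markers was past the limit (medians 0.20 and -0.23). Of the 7 adipocyte markers 2 passed the minimum, and Adipoq, Lep, Plin1, Cidea and Ucp1 were at 0 in 1 or both libraries. Fabp4 was at 469.9 normalized reads in control against 469.0 in iFIRKO (-0.0028). Cidec, which hepatocytes also use, passed the minimum in iFIRKO only, at 17.9 normalized reads in control against 108 in iFIRKO (2.35). These marker differences stand beside the lower values of Slc25a33, Slc25a36, Slc25a27, Slc25a4, Slc25a37 and Slc25a46, the tested carriers with intervals below 0. The part of other cells in these carrier values was not tested.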

How the data were processed

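Total liver RNA of 1 control and 1 iFIRKO sample was made into TruSeq stranded mRNA libraries and sequenced on an Illumina NovaSeq instrument. For both libraries the authors deposited log2 normalized read counts by gene symbol, in which a scaled count of 1 or less stands as 0. The submitters' processing notes name the build mm10, and the aligner, counter, strand setting and scaling are not given in the sources used here.

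The log2 values were returned to linear normalized reads. A CPM of 1 was 41.8 normalized reads, the mean of both totals over 1000000. The commonest step between low values gave the worth of 1 read pair (1.99 in control, 2.01 in iFIRKO), and 53.1% and 56.4% of the low values were then whole reads within 0.01 pairs, so depths and pair counts are estimates. Intervals are exact Clopper-Pearson intervals at 95% on these pairs. No fold is printed for a gene at 3 pairs or fewer in either library, although such a gene can enter a count of genes past the limit. Since each genotype had 1 library, no test was run. Exon lengths and positions were from GENCODE M21 on GRCm38, and promoters from RefSeq.

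The design assumed no log2 unit, and its limits were carried over through the CPM above. The members and lists were chosen with earlier results of these data known. All carriers but 1, which is counted in the totals and not reported here, are named, with fuller values for those past the fold limit, the 10 highest per kilobase and their relatives, and up to 3 genes by level and 3 by fold from other lists. The counting code was tested on simulated data. Alternatives covered pseudocount, minimum, scaling, duplicate symbols, length and fold limit. Python 3.11.15, pandas 2.3.3, numpy 2.4.6 and scipy 1.17.1 were used.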

Additional observations from a re-analysis of the deposited data

How the results depend on the processing

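Slc25a25 and Slc25a10 were past the higher limit of 1.5 under each of the 9 alternatives of pseudocount, minimum, scaling and duplicate symbols. At a fold above 2, 0 carriers were higher and 0 lower. The number of lower carriers was 2 with a pseudocount of 1 CPM and with a minimum of 5 CPM, in both cases without Slc25a27, and 4 with no minimum, where Slc25a31 was added on 11 and 1 read pairs. The median of the carriers ranged from 0.10 to 0.14. All 344 values of single carriers kept within their counting interval. The changes of minimum and the summing of duplicate symbols leave a carrier's own fold as it is, so part of these values could not move. Over all genes, 371 were higher and 576 lower with a pseudocount of 1 CPM, 1960 and 2620 with no minimum, and 288 and 440 with a minimum of 5 CPM, against 597 and 976. Slc25a5, Slc25a47 and Slc25a39 held 57.5% of the family in control and 54.3% in iFIRKO with the longest transcript as length, and 38.6% and 35.7% with no division by length, where Slc25a15 stood above Slc25a5 and Slc25a39. The median of lymphocyte and neutrophil markers moved from -1.74 to -1.22 with the larger pseudocount and to -0.75 with no minimum. That of the adipocyte markers, with 2 tested genes, moved from 1.17 to 0 with no minimum, and reached -0.0028 where the minimum was asked of both libraries or set at 5 CPM, and that of the uncoupling-protein-like carriers from 0.05 to 0.33 at 5 CPM. No paired analysis was possible because each genotype has 1 library. No symbol of the mitochondrially encoded genes was matched, so that list has no value. Depth limits the low carriers most, such as Slc25a27 with 58 and 34 read pairs, and the spread between animals was not measured.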

Other observations

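Family members that carry other symbols were read apart from the 45. Ucp2, an uncoupling protein of many tissues, had 1521 normalized reads in control against 1895 in iFIRKO (log2 fold change 0.32, interval 0.18 to 0.46). Mtch2, an outer membrane relative of the carriers, had 6322 normalized reads in control against 6819 in iFIRKO (0.11, 0.04 to 0.18), and Mtch1 had 2296 normalized reads in control against 2239.6 in iFIRKO (-0.04, -0.16 to 0.08). Ucp1 and Ucp3 were listed at 0 in both libraries. None of the 3 measured members was past 1.5-fold.

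Of 11 regulators of mitochondrial biogenesis, none was past the limit and the median was 0.04. Ppargc1a, a coactivator induced in liver by fasting, had 557 normalized reads in control against 411 in iFIRKO (-0.43, -0.71 to -0.17), and Ppargc1b had 165 normalized reads in control against 122 in iFIRKO (-0.43, -0.95 to 0.05). Pprc1, their relative, had 552 normalized reads in control against 705 in iFIRKO (0.35, 0.12 to 0.58), and Tfam, which packages mitochondrial DNA, had 2624 normalized reads in control against 2679 in iFIRKO (0.03). The members of this coactivator family thus lay on both sides of 0.

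Of 17 enzymes of coenzyme A, folate and S-adenosylmethionine metabolism, which make or use the cargo of Slc25a16, Slc25a42, Slc25a32 and Slc25a26, none was past the limit (median 0.04). Mat1a, which makes S-adenosylmethionine in liver, had 112427 normalized reads in control against 146791 in iFIRKO (0.38, 0.37 to 0.40), against 0.05 for the carrier Slc25a26. Coasy, which completes coenzyme A synthesis, had 4454 normalized reads in control against 5274 in iFIRKO (0.24, 0.16 to 0.33), and Ppcs, an earlier enzyme of that pathway, had 663 normalized reads in control against 914 in iFIRKO (0.46, 0.25 to 0.67), beside 0.39 for Slc25a16 and 0.15 for Slc25a42.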
